A study of Mus musculus with 6 samples.

Results

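Nonmuscle myosin and actin-binding contractile genes were followed in embryonic mouse hearts taken at E10.5, when the looped heart tube forms its chambers. The 10 genes, Myh9, Myh10, Myl6, Myl9, Acta2, Tagln, Cnn1, Cald1, Limk1 and Cfl1, were fixed by name, and their levels were read from every probe set annotated to exactly 1 gene symbol that is one of them. All 10 were found, on 24 of the 34945 probe sets with a single symbol, which represent 18193 genes. The samples were 3 KO hearts, from embryos with a global RhoE (Rnd3) gene-trap knockout, and 3 WT hearts from wild-type embryos, all on the C57BL/6N background, 6 arrays in all. The trap acts in the whole embryo and the tissue was whole heart, so a signal sums the cell types of the heart. The study's design describes WT and KO littermates, and that KO embryos die from about this stage on. No label ties an array to a litter.

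Nonmuscle myosin II pulls on actin filaments to round, move and divide cells and to shape tissue. Each molecule holds a pair of heavy chains, encoded here by Myh9 or Myh10, and light chains such as Myl6, the essential chain, and Myl9, the regulatory chain whose phosphorylation switches the motor on. The kinase ROCK raises that phosphorylation and also activates LIM kinase (Limk1), which inactivates the filament-severing protein cofilin (Cfl1). Rnd3 restrains ROCK1. Smooth muscle actin (Acta2), transgelin (Tagln), calponin (Cnn1) and caldesmon (Cald1) are best known from smooth muscle, and embryonic cardiomyocytes express several of them for a time. Many genes of this group are known targets of serum response factor (SRF), which binds the CArG box.

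The bases upstream of 4 of the genes are printed because they show how the CArG box is spread over the group. Windows of 250 bases before the annotated start were taken from RefSeq promoters on GRCm38.p6, which matched 9 of the 10 genes, all but Tagln, some with more than 1 start, 12 windows in all. A CArG box was searched as CC and GG around 6 bases that are A or T, on both strands, and also with 1 of the 6 middle bases being G or C. By this definition the 2 forms cannot be the same match, though matches may overlap. Capitals mark the matches. Each sequence runs 5′ to 3′ on the strand of its gene and ends at the base before the start. Acta2 was read from chr19:34255374-34255623 on the minus strand and Myl9 from chr2:156775214-156775463 on the plus strand. Myl6 was read from chr10:128493010-128493259 and Myh9 from chr15:77842176-77842425, both on the minus strand.
Acta2: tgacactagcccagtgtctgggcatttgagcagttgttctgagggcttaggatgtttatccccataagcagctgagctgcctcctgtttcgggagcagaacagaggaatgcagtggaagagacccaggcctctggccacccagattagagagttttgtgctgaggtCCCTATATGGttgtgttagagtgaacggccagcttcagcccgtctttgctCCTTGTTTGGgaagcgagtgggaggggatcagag
Myl9: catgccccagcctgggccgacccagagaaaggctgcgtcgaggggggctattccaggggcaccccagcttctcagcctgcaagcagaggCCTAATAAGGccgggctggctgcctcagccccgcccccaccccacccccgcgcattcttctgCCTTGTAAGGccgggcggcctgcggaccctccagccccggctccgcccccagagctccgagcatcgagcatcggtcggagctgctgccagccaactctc
Myl6: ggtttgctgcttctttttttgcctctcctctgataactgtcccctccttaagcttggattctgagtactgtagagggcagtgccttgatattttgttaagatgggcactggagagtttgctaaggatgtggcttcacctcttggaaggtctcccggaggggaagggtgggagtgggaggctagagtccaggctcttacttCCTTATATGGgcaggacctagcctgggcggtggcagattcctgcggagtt
Myh9: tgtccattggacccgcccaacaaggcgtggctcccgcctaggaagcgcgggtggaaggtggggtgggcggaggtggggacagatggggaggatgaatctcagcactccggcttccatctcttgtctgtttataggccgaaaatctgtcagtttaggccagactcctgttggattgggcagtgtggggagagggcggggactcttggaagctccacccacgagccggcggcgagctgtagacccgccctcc

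Acta2 held a pair of the boxes with 1 G or C, at 84 to 75 and 34 to 25 bases before the start. Myl9 held a full CArG box 161 to 152 bases before the start and a box with 1 G or C at 99 to 90 bases. Myl6 held a full box 50 to 41 bases before the one of its starts that is printed. No match lay in the Myh9 window, and the other windows of the group held none either, so 3 of the 12 windows had a match. Among all 32851 windows of this length, 1.47% held the full box and 8.59% held either form. These are matches of letters, and whether SRF binds there was not measured.

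Each array gave a MAS5 signal, a linear intensity scaled to the same trimmed mean on every array, and signals were compared on the log2 scale with limma. The knockout showed in Rnd3, whose brightest probe set read 5.89, 12.3 and 121 on the KO arrays, against 909, 954 and 862 on the WT arrays. Of 12712 genes tested on their brightest probe set, 1.27% had an adjusted p under 0.05, with 0.787% called higher and 0.488% called lower in KO. Of these calls 61.7% were higher in KO, a share that was 80.7% with each array centred on its median over all probe sets and 81.1% with centring over tested genes. Xist, which marks female tissue, read 28.4 to 539 on KO arrays 1 and 3 and 8884 on KO array 2, against 10251 to 12474 on the WT arrays on its brightest probe set. The 3 Y-linked genes tested rose in KO, and on its brightest probe set each was above every WT array on all 3 KO arrays. Eif2s3y read 2214, 793 and 2339 in KO, against 551, 312 and 385 in WT. Genotype and a different share of male tissue therefore cannot be told apart, KO array 2 included. The ratio of 3' to 5' Gapdh signal, a sign of RNA integrity, was 0.939 to 0.993 on the KO arrays and 1.09 to 1.13 on the WT arrays. The same ratio for Actb overlapped between groups, at 2.22 to 2.54 in KO and 2.35 to 2.62 in WT. The part of RNA integrity in the results was not tested. All 12 cardiomyocyte markers were tested, with a summed signal of 315281 to 351920 in KO and 336790 to 362318 in WT, and none passed. The tissue label is borne out by them, with Tnnt2, cardiac troponin T, at 31622 ± 664 in KO and 31019 ± 2414 in WT (SD, n = 3 each). Of the 12 markers 8 (66.7%) were negative, against 56.2% of all genes tested. Lower in KO without overlap were 3 (25.0%), against 15.5% of all genes, and none was higher. The 3 were Myh6 (log2 fold change -0.25, SE 0.08), Myl2 (-0.14, SE 0.06) and Nkx2-5 (-0.29, SE 0.14).

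Single markers of some other cell types passed. Among those of macrophages 1 of 6 tested rose, the lysozyme gene Lyz2 (limma adjusted p = 0.0374). It read 634 ± 239 in KO and 232 ± 28.7 in WT. Of the 6, 4 were positive and 2 negative, with a median log2 fold change of 0.053. Among those of platelets 1 of 5 rose, the chemokine gene Ppbp, just past the threshold (limma adjusted p = 0.049997). It read 350.3 ± 67.6 in KO and 175 ± 52.6 in WT. Of the 5, 3 were positive and 2 negative, with a median of 0.036. Among those of liver and yolk sac endoderm 1 of 7 fell, the albumin gene Alb, also just past the threshold (limma adjusted p = 0.049997). It read 36.5 ± 15.6 in KO and 140 ± 48.1 in WT (all with SD, n = 3 each). On the KO arrays Alb read 51.9, 36.8 and 20.7, where the low-signal limit was 50.6, 50.2 and 44.5. It was therefore tested through its WT signals, and the size of its fall is uncertain. All 7 endoderm markers were negative, with a summed signal of 468 to 2032 in KO and 1643 to 7320 in WT. No endothelial, cushion, epicardial or erythroid marker passed. The part of such cells in the contractile genes' values was not tested.

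Of the 10 contractile genes, Myh9 alone passed the test, and it fell. The other 9 did not pass, with log2 fold changes from -0.48 to 0.23. All 10 lay above the low-signal limit on all 6 arrays on their brightest probe set, so the filter on dim signals removed none. The limit was the 40th percentile of each array, 44.5 to 52.8. The groups did not overlap for 7 of the 10, 6 lower and 1 higher in KO, where over all genes tested 26.3% did not overlap, 15.5% lower and 10.8% higher. An unadjusted p below 0.05 was reached by 5 of the 10, against 20.3% of all genes. The median log2 fold change was -0.13 over the 10 genes and -0.040 over all genes tested. In bulk tissue, fewer cells of a type and less RNA per cell cannot be told apart.

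**Figure D1:**
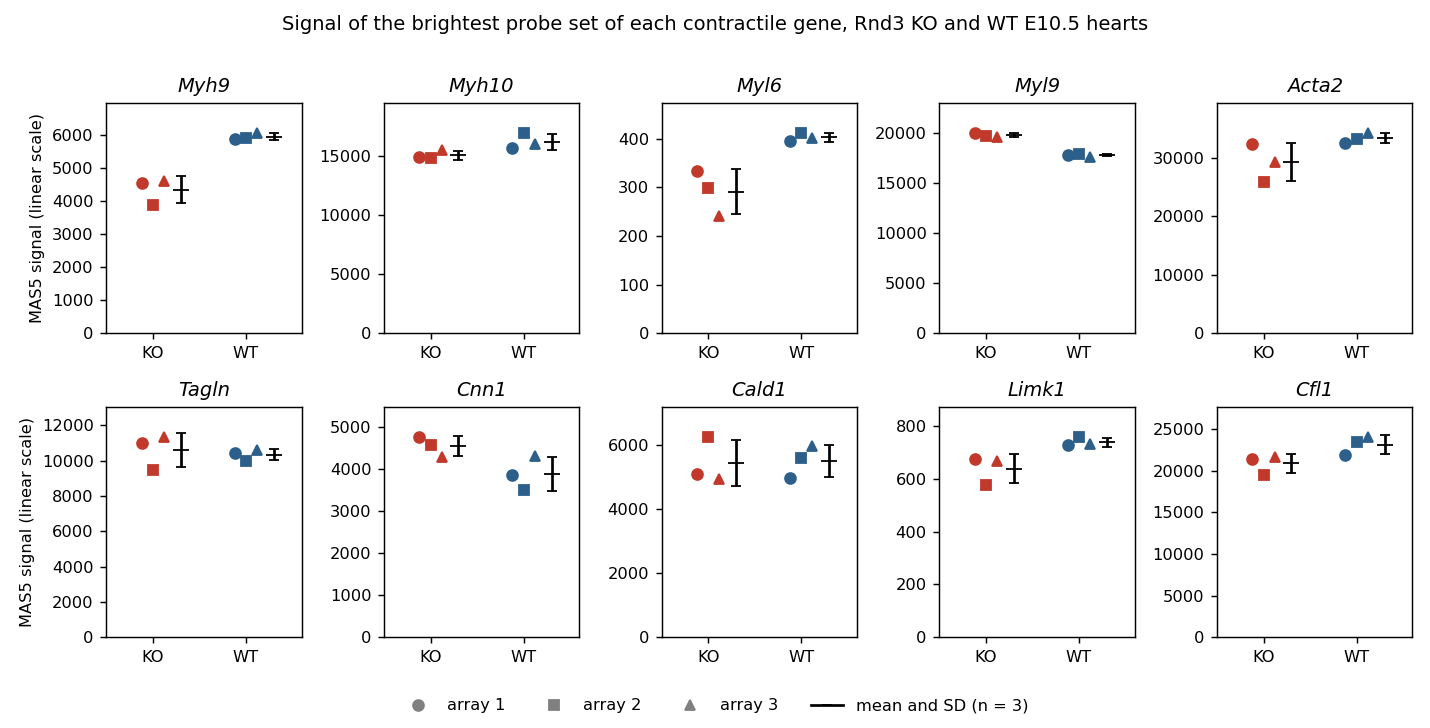
Each panel plots the MAS5 signal (vertical axis, linear, from 0) of a contractile gene's brightest probe set on the 3 KO arrays (left, red) and the 3 WT arrays (right, blue), with the mean and SD beside them. Circles, squares and triangles mark arrays 1, 2 and 3. The groups are separate for Myh9, Myh10, Myl6, Acta2, Limk1 and Cfl1, lower in KO, and for Myl9, higher in KO, and they overlap for Tagln, Cnn1 and Cald1.

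Myh9 encodes the heavy chain of nonmuscle myosin IIA. Its brightest probe set, 1420171_s_at, read 4565, 3874 and 4626 on the KO arrays, against 5886, 5929 and 6072 on the WT arrays. The KO arrays lay at 76.6%, 65.0% and 77.6% of the WT mean, so the groups are well apart and KO array 2 is the lowest. The log2 fold change was -0.46 (SE 0.09, 95% interval -0.65 to -0.27, limma adjusted p = 0.0401), the 85th smallest p of all genes, or 1.37-fold lower in KO. KO array 2, whose Xist signal is the closest to WT among the KO arrays but whose Y-linked genes are above WT, gave -0.62 when set alone against the WT arrays (limma adjusted p = 0.00551, with 1 KO array assumed to vary like the WT arrays). With Xist as a covariate the value was -0.59 and the call was missed (adjusted p = 0.0555).

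The other tested Myh9 probe sets gave the same direction. The next brightest, 1420172_at, read 2719, 2811 and 2577 in KO, against 3408, 3353 and 3243 in WT, a log2 fold change of -0.30 (SE 0.08). The third, 1417472_at, read 1097, 1124 and 1022 in KO, against 1485, 1351 and 1381 in WT, a log2 fold change of -0.38 (SE 0.10). The dimmest of the 4 tested, 1420170_at, read 733, 594 and 553 in KO, against 941, 1023 and 1023 in WT, a log2 fold change of -0.68 (SE 0.13). On each of the 4 probe sets every KO array was below every WT array, and KO array 2 was the lowest KO array on the brightest of them only. It was the least reduced KO array on 1420172_at and 1417472_at, at 84.3% and 80.0% of the WT mean, and alone against WT it gave -0.25 and -0.32 there (adjusted p = 0.217 and 0.177). Tested over 27404 probe sets, the brightest (limma adjusted p = 0.0490) and the dimmest (0.0462) passed, while the middle pair had 0.109 and 0.0981. The 4 read the same gene in the same RNA, so they repeat the measurement of the probes, not of the hearts. A further Myh9 probe set was above the low-signal limit on 1 KO and 1 WT array only and was not tested. It read 42.8, 60.2 and 31.9 in KO, against 14.4, 60.4 and 4.22 in WT.

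The Myh9 call rests on the arrays and settings used. It was missed without WT array 1, 2 or 3 (limma adjusted p = 0.162, 0.192 and 0.120) and without KO array 2 or 3 (0.0552 and 0.122), while the fold change stayed between -0.50 and -0.38 on the log2 scale whichever array was left out. Averaging all 5 probe sets gave -0.06 (adjusted p = 0.894), since the average takes in the dim probe set, and averaging the 4 tested ones gave -0.45 (adjusted p = 0.0539).

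**Figure D2:**
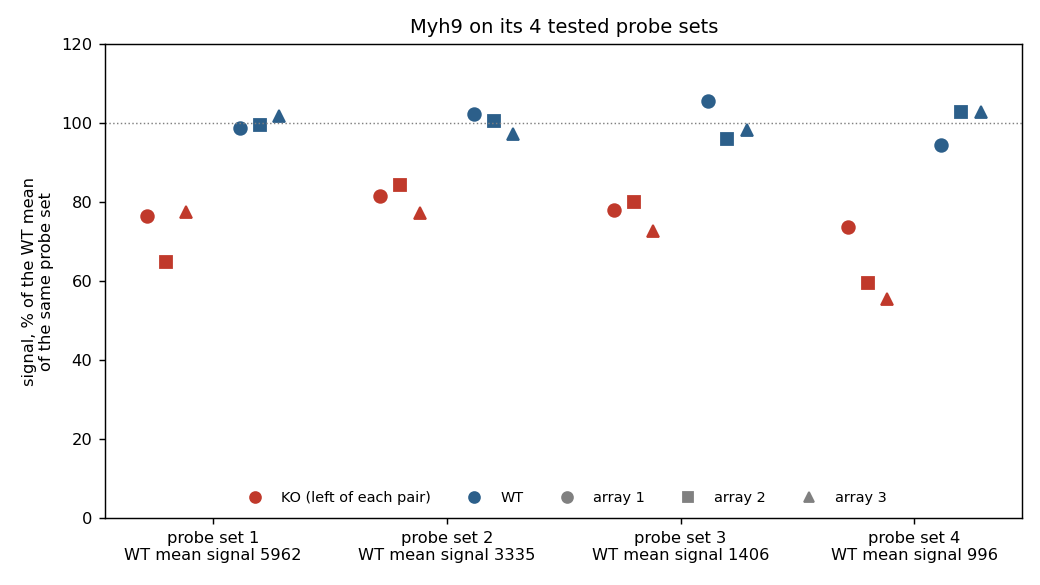
Signals of the 4 tested Myh9 probe sets on each array, as a percentage of the WT mean of the same probe set (vertical axis, from 0), with KO arrays in red left of WT arrays in blue and shapes for arrays 1, 2 and 3. KO arrays lie between 55.5% and 84.3% of the WT mean and WT arrays between 94.5% and 106%.

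Myh10, the heavy chain of nonmuscle myosin IIB and the one long studied in the embryonic mouse heart, did not pass. Its bright probe set read 14875, 14775 and 15498 on the KO arrays, against 15646, 16927 and 15971 on the WT arrays. The KO arrays were all lower, though KO array 3 came close to the lowest WT array. The log2 fold change was -0.10 (SE 0.07, 95% interval -0.25 to 0.04, limma adjusted p = 0.405). A dim probe set read 74.2, 93.3 and 81.2 in KO, against 86.0, 82.6 and 60.1 in WT, with the groups mixed (0.13, SE 0.28). The intervals of the Myh9 probe sets 1420171_s_at (-0.65 to -0.27) and 1420170_at (-0.96 to -0.40) do not overlap that of the bright Myh10 probe set. Those of the Myh9 probe sets 1420172_at (-0.49 to -0.12) and 1417472_at (-0.60 to -0.16) do overlap it. The difference between the genes was not tested.

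The light chains lay on opposite sides. Myl9, the regulatory chain, read 20002, 19701 and 19601 in KO, against 17839, 17915 and 17647 in WT, a tight and separate pair of groups. Its log2 fold change was 0.15 (SE 0.06, 95% interval 0.02 to 0.28, limma adjusted p = 0.187), so it did not pass. It was the member with the smallest standard error, the KO arrays standing at 110% to 112% of the WT mean. Myl6, the essential chain, read by 1435041_at, had 334, 298 and 241 in KO, against 394, 411 and 401 in WT. The KO arrays were all lower and spread widely, at 83.1%, 74.1% and 59.9% of the WT mean. The log2 fold change was -0.48 (SE 0.14, 95% interval -0.80 to -0.16, limma adjusted p = 0.103), and it passed only without KO array 1 (-0.59, adjusted p = 0.0432).

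Other probes for Myl6 did not show that difference. Besides the single-symbol probe set, 2 brighter ones are annotated to Myl6 together with the gene models Gm8894 and Gm5526, and fall outside the rule. The first read 15212, 15007 and 14639 in KO, against 14352, 14728 and 15135 in WT (0.021, SE 0.06). The second read 21049, 19101 and 19817 in KO, against 17653, 20969 and 21232 in WT (0.0066, SE 0.08). On both the groups overlapped. The dim and the bright probe sets for Myl6 therefore differ in what they show, and which transcripts each one reads was not analysed here.

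Acta2, smooth muscle alpha-actin, had a very bright signal. Its main probe set read 32395, 25906 and 29236 on the KO arrays, against 32546, 33185 and 34230 on the WT arrays. KO array 1 lay just under the lowest WT array and KO array 2 well below. The log2 fold change was -0.20 (SE 0.08, 95% interval -0.37 to -0.02, limma adjusted p = 0.195). The size rested on KO array 2: it was -0.11 without that array, and -0.36 for that array alone against WT (adjusted p = 0.0331). These signals stood at 66.8% to 77.5% of the highest signal of their arrays, and whether they were near a ceiling was not tested. A dimmer probe set read 242, 144 and 174 in KO, against 233, 252 and 213 in WT (-0.35, SE 0.20), with KO array 1 among the WT values here. The third was above the limit on 2 WT arrays and no KO array and was not tested, at 24.2, 33.8 and 40.5 in KO, against 69.1, 68.4 and 35.3 in WT.

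The actin-binding proteins of smooth muscle did not pass either. Tagln, transgelin, read 10974, 9492 and 11349 in KO, against 10409, 9981 and 10617 in WT. The KO arrays lay on both sides of WT, and the log2 fold change was 0.033 (SE 0.08, 95% interval -0.15 to 0.21, limma adjusted p = 0.852), its sign turning under quantile normalization (-0.014). Cnn1, calponin 1, an inhibitor of the actomyosin ATPase, read 4756, 4565 and 4282 in KO, against 3849, 3498 and 4292 in WT. KO array 3 and WT array 3 met, and the log2 fold change was 0.23 (SE 0.09, 95% interval 0.02 to 0.43, limma adjusted p = 0.201).

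Cald1, caldesmon, which binds actin, myosin and calmodulin, was read by 4 tested probe sets that went both ways. The brightest read 5090, 6253 and 4944 in KO, against 4976, 5579 and 5973 in WT, with a log2 fold change of -0.025 (SE 0.11, 95% interval -0.26 to 0.21, limma adjusted p = 0.916), whose sign turned with median centring (0.034). The second read 1343, 1504 and 1358 in KO, against 1164, 1405 and 1457 in WT (0.068, SE 0.11). The third read 807, 1116 and 930 in KO, against 1345, 1053 and 1002 in WT (-0.25, SE 0.15), the lowest values being on KO arrays 1 and 3. Groups overlapped on all 4, and KO array 2 was the highest KO array on each. The dimmest tested read 162, 232 and 111 in KO, against 148, 186 and 123 in WT (0.10, SE 0.27). The remaining one lay below the limit on all 6 arrays, at 6.45 to 9.48 in KO and 10.1 to 19.9 in WT.

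Limk1, the kinase that phosphorylates cofilin, read 676, 575 and 667 in KO, against 727, 759 and 732 in WT. KO array 2 stood apart from the other KO arrays, which were close to WT. The log2 fold change was -0.21 (SE 0.11, 95% interval -0.45 to 0.03, limma adjusted p = 0.300). A dim probe set pointed the other way, at 110, 97.8 and 145 in KO, against 70.7, 92.1 and 103 in WT (0.41, SE 0.25). The third lay below the limit on all 6 arrays, at 3.49 to 4.40 in KO and 3.68 to 20.8 in WT. Averaged over the tested pair, Limk1 had 0.097, and averaged over all its probe sets it had -0.23, so its direction depends on the probe set. Of the 21 alternatives, 20 kept the negative sign.

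Cfl1, cofilin 1, which severs actin filaments, read 21426, 19555 and 21713 in KO, against 21846, 23496 and 24081 in WT on its bright probe set. The groups were separate by a narrow margin, and the log2 fold change was -0.15 (SE 0.07, 95% interval -0.30 to 0.01, limma adjusted p = 0.261). That probe set carries the suffix, x_at, by which the maker marks probes that may also bind other transcripts. The brightest probe sets of Myh9, Acta2 and Cald1 carry the suffix s_at, which marks probes shared by several transcripts. Which transcripts these probe sets read was not analysed here. The other Cfl1 probe set read 1935, 1352 and 1819 in KO, against 2156, 2066 and 2274 in WT, also separate, with a log2 fold change of -0.36 (SE 0.13, 95% interval -0.65 to -0.08, limma adjusted p = 0.195). KO array 2 was again the lowest on both.

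**Figure D3:**
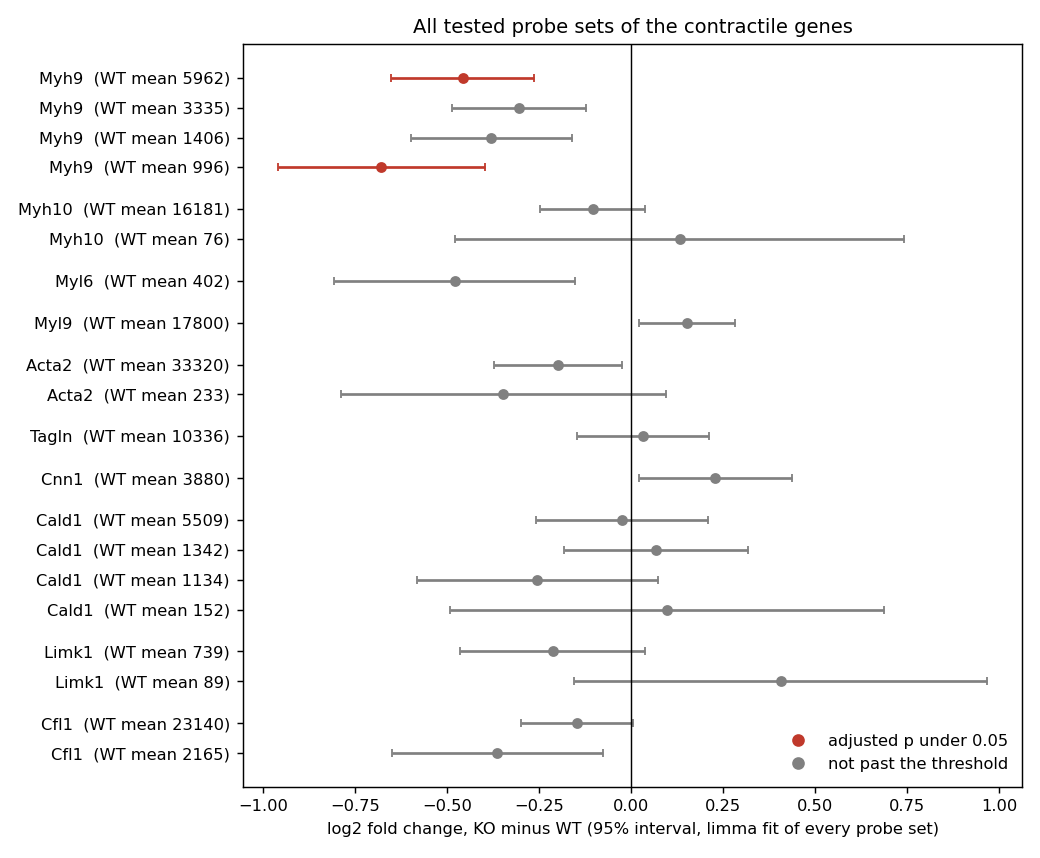
Log2 fold changes, KO minus WT, of the 20 tested probe sets of the contractile genes, with 95% intervals from the fit of every probe set (horizontal axis) and the WT mean signal beside each gene name. All 4 Myh9 probe sets lie left of 0, 2 of them past the threshold (red), while those of Myh10, Cald1 and Limk1 fall on both sides.

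Over probe sets, 20 of the 24 were tested and 2, both of Myh9 and lower in KO, passed. Of all 27404 probe sets tested 0.595% passed, 0.390% higher and 0.204% lower. Groups did not overlap on 11 of the 20, 10 lower and 1 higher in KO, where 23.1% of all probe sets did not overlap, 13.0% lower and 10.1% higher. An unadjusted p below 0.05 was reached by 9 of the 20, against 16.8% of all probe sets. Of the 6 genes with more than 1 probe set, Myh9, Acta2 and Cfl1 had 1 sign on all that were tested, and Myh10, Cald1 and Limk1 had both. KO array 2 was the lowest KO array for 6 of the 10 genes on their brightest probe sets, namely Myh9, Myh10, Acta2, Tagln, Limk1 and Cfl1, and KO array 3 for the other 4. KO array 2 was the lowest for 37.1% of all genes tested.

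Genes that act around these 10 were taken from 5 lists made by known role. No gene of any of them passed in the main fit, the one used unless another is named. Of all 12712 genes tested 7139, or 56.2%, were negative, and 15.5% were lower and 10.8% higher in KO without overlap. Of 23 genes of ROCK and myosin phosphorylation, 10 were positive and 13 negative, with a median of -0.042. An unadjusted p below 0.05 was reached by 2, against 20.3% of all genes. Without overlap 2 (8.70%), Rhoa and Mylk3, were higher in KO and 1 (4.35%), Rock1, was lower. Rock1, the kinase that Rnd3 restrains, read 4334 ± 36.5 in KO and 4924 ± 278 in WT (-0.18, SE 0.08, limma adjusted p = 0.220), separate between groups. Its value ranged from -0.22 to -0.011 over the 21 alternatives, so its size depends on the setting. Rhoa, the GTPase that activates ROCK, read 6582 ± 138 in KO and 5861 ± 376 in WT (0.17, SE 0.08, adjusted p = 0.248). Mylk3, the cardiac myosin light chain kinase, read 3730 ± 436 in KO and 2831 ± 343 in WT (0.40, SE 0.11, adjusted p = 0.0943, all means with SD and n = 3).

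Of 14 other nonmuscle and smooth muscle myosin chains, 9 (64.3%) were negative, with a median of -0.077, and 2 (14.3%) were lower and 0 higher in KO without overlap. The unconventional myosin Myo1c had -0.35 (SE 0.09, limma adjusted p = 0.0630), the transport motor Myo5a -0.45 (SE 0.19) and the light chain Myl6b, dim in both groups, -0.54 (SE 0.29). The Myo1c value depends on its probe set, the average over its probe sets being 0.16. Myh11, the smooth muscle myosin heavy chain, was near the low-signal limit, at 42.1 ± 34.5 in KO and 57.7 ± 6.92 in WT (SD, n = 3 each). Of 8 markers of smooth muscle and pericytes, 5 were negative and 3 positive, with a median of -0.18, against -0.040 over all genes tested. None passed, and none was separate between groups. An unadjusted limma p below 0.05 was reached by 3, all lower in KO, against 20.3% of all genes. The summed signal of the 8 was 8541 to 10667 in KO and 9996 to 12280 in WT. The part of such cells in the Acta2, Tagln and Cnn1 signals was not tested.

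Among 24 genes of LIM kinase, slingshot phosphatases and actin turnover, 15 (62.5%) were negative, with a median of -0.076, and 9 (37.5%) were lower in KO without overlap, against 56.2% and 15.5% of all genes. The kinases Pak2 and Pak4, which can act on LIM kinase, had -0.32 (SE 0.10, limma adjusted p = 0.106) and -0.34 (SE 0.11), and the cyclase-associated protein Cap1, which recycles actin monomers, had -0.28 (SE 0.10). Among 29 actins, tropomyosins and cross-linkers, 20 (69.0%) were negative, with a median of -0.061, and 9 (31.0%) were lower and 3 (10.3%) higher in KO without overlap, against 15.5% and 10.8% of all genes. The membrane linker ezrin, Ezr, had 0.35 (SE 0.08, adjusted p = 0.0608), but -0.12 averaged over its probe sets. The tropomyosin Tpm2 had -0.47 (SE 0.11, adjusted p = 0.0629) and the Z-disc protein Pdlim5 had 0.31 (SE 0.08, adjusted p = 0.0698). Over the 21 alternatives Pak2 ranged from -0.37 to -0.091 and Pdlim5 from 0.078 to 0.38, so their sizes depend on the setting.

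Of 24 genes around SRF and its myocardin-family partners, 16 (66.7%) were negative, with a median of -0.058, and 3 (12.5%) were higher and 0 lower in KO without overlap, against 10.8% and 15.5% of all genes. The LIM-domain protein Csrp1 read 4677 ± 387 in KO and 3501 ± 374 in WT (0.42, SE 0.10, limma adjusted p = 0.0619). Fhl2, another LIM-domain protein, had 0.23 (SE 0.09), and Ccn1, a secreted matrix protein known as an early target of YAP and SRF, had -0.43 (SE 0.15, adjusted p = 0.141). Without KO array 1, the fit with the most calls over all genes among those leaving out 1 array, Csrp1, Ccn1, Mylk3, Myo1c, Tpm2 and Pdlim5 passed (limma adjusted p = 0.0193 to 0.0401), each in the direction given. With centring over tested genes Csrp1, Ezr and Pdlim5 passed (0.0387 to 0.0467). Csrp1 and Ezr passed with array weights too (limma adjusted p = 0.0269 and 0.0340). They also passed with a signal above the limit on all 6 arrays (0.0493 each).

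**Figure D4:**
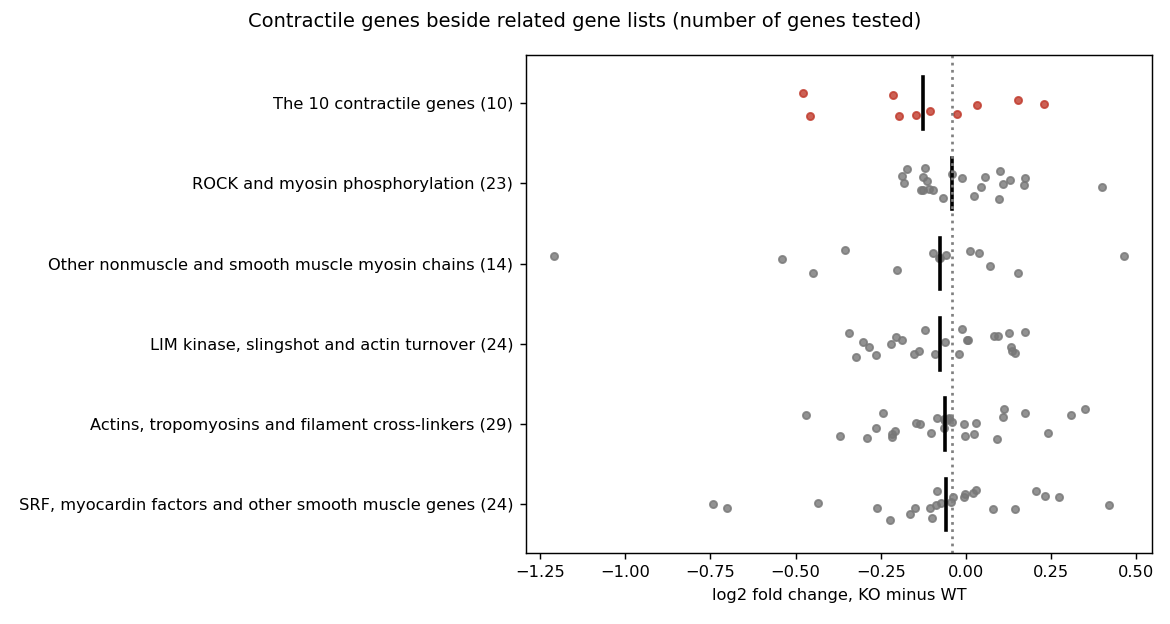
Log2 fold changes, KO minus WT (horizontal axis), of the 10 contractile genes (red) and of the tested genes of 5 related lists (grey), with a black bar at each median and a dotted line at the median of all genes tested. The medians lie between -0.13 and -0.042, and the contractile genes spread from -0.48 to 0.23.

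The genes whose pattern over the 6 arrays was most like that of Myh9 were found by the root mean square difference of log2 signals, each gene centred on its own mean. They were Rrp1b (0.040), Unk (0.042) and Fen1 (0.043), with log2 fold changes of -0.41, -0.43 and -0.39 and none past the test. Their KO array 2 was their lowest, as for Myh9. For Tagln, whose groups overlap, the nearest were Chmp7 (0.023), Fbxo16 (0.024) and Pgm1 (0.026), each lowest on KO array 2 too. The like fold changes and the low KO array 2 follow from picking genes by their likeness over these same 6 arrays.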

How the data were processed

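The 6 arrays hold biotin-labelled cRNA of E10.5 hearts, 3 KO and 3 WT, grouped by the genotype in their titles. The authors deposited an intensity for each probe set. The submitters' processing notes name MAS5 and Affymetrix Expression Console for this step, with versions not given in the sources used here. After trimming 2% at both ends the arrays had means of 500.003 to 500.004, and no further scaling was applied.

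The 64 control probe sets were left out. Of the other 45037, the platform annotation gave 34945 a single gene symbol, 932 several and 9160 none used here. Of the single ones 34741 matched a RefSeq gene, which updated 0 symbols. A gene was represented by the probe set with the highest mean log2 signal and tested if that was above the array's 40th percentile on at least 3 of 6 arrays. That limit was not measured as a background.

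KO minus WT was fitted by limma 3.58.1 (R 4.3.3), using lmFit and eBayes with trend, with Benjamini-Hochberg adjustment over all genes and a threshold of 0.05. A further fit tested every probe set above the limit. Standard errors and intervals are limma's, and those of a member's dimmer probe sets come from the fit of every probe set. The procedure was tested on simulated data. Nothing says whether an array holds 1 heart or several, so p-values measure the spread between these arrays. With 3 arrays a group, their number limits the precision.

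The members, gene lists, markers and alternatives were chosen with earlier results of these data known. The text names all members, Rnd3, the 3 genes of each list with the smallest p, the 3 nearest patterns of Myh9 and Tagln, and markers beside the results. Lyz2, Ppbp and Alb were named after their values were seen, as the markers that passed. In deviations from the group means, same-numbered KO and WT arrays had weak positive correlations (r = 0.018, 0.057 and 0.015 over genes). Those of differently numbered arrays ran from -0.037 to 0.021. With 3 arrays a group, values this small do not decide whether the numbers stand for pairs. Since no array is tied to a litter, the main fit left the replicate number out, and an alternative used it as a block. Alternatives covered scaling, the filter, the probe set, the variance model, array weights, the replicate number, an Xist covariate, the threshold and leaving out arrays. Figures were drawn with matplotlib 3.10.9.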

Additional observations from a re-analysis of the deposited data

How the results depend on the processing

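Over 21 alternatives, 3 of them chosen after seeing the data (tested probe sets averaged, centring over tested genes, and KO array 2 alone), Myh9 was lower in KO in all 21 and past the threshold in 10. The 10 include the threshold of 0.10, which is the main fit at a looser cut and could not lose the call. They also include KO array 2 alone, which leaves 1 KO array. Besides the cases given with the results, the Myh9 call was missed with median centring over all probe sets (limma adjusted p = 0.140), without the filter (0.0587) and without the intensity trend (0.206). The 1 call among the 10 genes became 0 with median centring, without the filter, with all or only tested probe sets averaged, without the intensity trend and with the Xist covariate. It became 2 (Myh9 and Acta2) with KO array 2 alone, and was 0 to 2 when 1 array was left out, the 2 being Myh9 and Myl6.

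Over all genes the 162 calls became 83 with median centring, 312 with centring over tested genes, 1 without the filter (2861 at an unadjusted p below 0.05), 291 with a signal above the limit on all 6 arrays, 542 with array weights, 6 with the Xist covariate, 805 at a threshold of 0.10 and 1551 with KO array 2 alone. They became 0 with all probe sets or only tested ones averaged (1720 and 2017 at an unadjusted p below 0.05) and 1 without the intensity trend. When 1 array was left out they were 0 to 916, with 0, 0 and 4 for the 3 WT arrays in turn, and 916, 65 and 2 for the 3 KO arrays. Where limma called 0, 1944 and 1755 genes had an unadjusted p below 0.05. Over every probe set the 163 calls became 284 with a floor of 32, 23 without the filter, 368 above the limit on all 6 arrays, 0 without the trend (3816 at an unadjusted p below 0.05), 503 with array weights, 7 with the Xist covariate, 809 at a threshold of 0.10, 361 with centring over tested genes and 1718 with KO array 2 alone, and 1 to 934 when 1 array was left out. The cause was not tested, save that averaging and filters change what is tested.

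With the replicate number as a block, 189 genes passed in place of 162 and Myh9 kept its call (adjusted p = 0.0386). The block changed no other call among the 10 genes, and Csrp1 passed under it (0.0490). In deviations from the group means over genes, KO arrays 1 and 2, but not KO array 3, correlated best with the WT array of their own number.

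Signs turned for these values, none of them past the threshold. Cald1 had 0.034 with median centring, 0.024 with centring over tested genes, 0.16 with the Xist covariate and 0.19 with KO array 2 alone, and ranged from -0.13 to 0.038 when 1 array was left out. Its second probe set ranged from -0.032 to 0.13, and its dimmest tested one from -0.17 to 0.37, with -0.090 under array weights. Tagln had -0.014 with quantile normalization, -0.11 with the Xist covariate and -0.12 with KO array 2 alone, and ranged from -0.018 to 0.11. The dim Myh10 probe set ranged from -0.031 to 0.23. With probe sets averaged, Myh10 had 0.014, Ezr -0.12 and Myo1c 0.16 in both forms, and Limk1 had 0.097 over tested ones. Probe sets near the low-signal limit are the least certain.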
